A study of Homo sapiens with 2 samples.

Results

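The 10 genes described here, HILPDA, PLIN2, PLIN3, PNPLA2, PNPLA3, G0S2, LPIN1, DGAT1, DGAT2 and ABHD5, encode proteins that make triglyceride, coat the lipid droplet in which it is stored, or release fatty acids from it. They were chosen by symbol for these functions, with earlier results of these data known, and matched by Entrez gene ID, and all 10 were found among the 27685 genes of the files. The cells were PLC/PRF/5, an established human hepatocellular carcinoma line. They received 6 µM JIB-04, a small molecule that inhibits Jumonji-family histone demethylases, or its solvent DMSO, each for 24 h, and 1 mRNA library was sequenced per condition. A treatment label of the control library reads untreated, but the title and the study's methods give DMSO, so this library serves as the DMSO control. The comparison asks how the levels of these transcripts in liver cancer cells differ after exposure to the inhibitor.

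Hepatocytes and hepatoma cells store surplus fatty acids as triglyceride in cytosolic lipid droplets. Lipins convert phosphatidate to diacylglycerol, and the DGAT enzymes add the last fatty acid to make triglyceride. Perilipins coat the droplet surface, and the lipase ATGL (the product of PNPLA2) starts triglyceride breakdown when its coactivator ABHD5 is free to bind it, while HILPDA and G0S2 are small proteins that inhibit ATGL. HILPDA and PLIN2 are known in other cells as genes induced by low oxygen through hypoxia-inducible factors, and PLIN2 also as a gene induced by fatty acids through PPAR receptors.

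Estimated depth was 23721989 fragments for JIB-04 and 28187793 for DMSO. Levels are given in TPM, a share of all transcripts that is corrected for transcript length and sums to the same total in each library. The log2 ratio sets JIB-04 over DMSO after adding 1 TPM to each, which understates differences of weak genes. The 14450 genes that reached 1 TPM in at least 1 library were described. Their median log2 ratio was -0.15. With 1 library per condition there was no replicate check and no test, and treatment and library cannot be told apart. The 95% intervals are exact conditional binomial intervals on estimated fragments and cover counting error only. In bulk RNA, fewer cells of a kind and less RNA per cell cannot be told apart. All 12 hepatocyte markers were above 0 in both libraries, with a summed level of 5988 TPM with JIB-04 and 9455 TPM with DMSO, although albumin (ALB) was at only 4.53 TPM with JIB-04 and 9.74 TPM with DMSO, and their median log2 ratio was -0.20. Of 8 adipocyte markers, 5 with JIB-04 and 4 with DMSO were above 0, their summed level was 7.10 TPM with JIB-04 and 14.2 TPM with DMSO, and ADIPOQ, CIDEA and FABP4 were listed at 0 in both libraries. Of 9 immune, stromal and endothelial markers, 5 were above 0 in each library, with a summed level of 12.4 TPM with JIB-04 and 22.7 TPM with DMSO, and PTPRC, CD163 and CDH5 were listed at 0 in both. COL1A1 held most of that sum, at 10.6 TPM with JIB-04 and 16.0 TPM with DMSO (log2 ratio -0.55). Of the 12 hepatocyte markers, 0 were past 2-fold on the higher side and 2 on the lower side (16.7%, against 6.88% of all genes described), APOB at 32.9 TPM with JIB-04 and 103 TPM with DMSO and KRT18 at 2214 TPM with JIB-04 and 4484 TPM with DMSO. KRT18 and KRT8, the latter at 1912 TPM with JIB-04 and 3212 TPM with DMSO, held most of the summed level in each library. The lower sum with JIB-04 thus rests mainly on these keratins. The highest ratios of that list were those of TTR, at 7.06 TPM with JIB-04 and 3.91 TPM with DMSO (log2 ratio 0.72), and FGB, at 961 TPM with JIB-04 and 771 TPM with DMSO (0.32). CIDEC of the adipocyte list and CD14 of the immune list, at 1.37 TPM with JIB-04 and 6.05 TPM with DMSO, were also past 2-fold on the lower side, and the part of these markers in the results was not tested. The adipocyte list shares 6 genes with the lists of lipid genes given further on.

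HILPDA, PLIN2 and LPIN1, 3 of the 9 members described, exceeded 2-fold on the higher side with JIB-04, against a background of 5.99% of all genes described. No member was at least 2-fold lower, against a background of 6.88%. Of the other 6 described members, PLIN3, PNPLA3 and PNPLA2 had log2 ratios between 0.28 and 0.46, ABHD5 lay near 0, and both DGAT genes were below 0. G0S2 was under 1 TPM in both libraries and is given apart. The median log2 ratio of the 9 members was 0.41. The summed level of all 10 genes was 1604 TPM with JIB-04 and 558 TPM with DMSO. HILPDA alone made up 52.5% of that sum with JIB-04 and 26.7% with DMSO, and PLIN2 made up 21.4% with JIB-04 and 15.4% with DMSO. When each library was divided by its GAPDH level, which was itself higher with JIB-04 by a log2 ratio of 1.34, HILPDA was the 1 member still past 2-fold on the higher side, with 1.15, and PNPLA2, ABHD5, DGAT1 and DGAT2 were at least 2-fold lower. This division lowers the log2 ratio of every gene by the same 1.34. The median of all genes described, -0.15 before it, is then itself past 2-fold on the lower side, so these lower calls are not particular to the members.

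**Figure D1:**
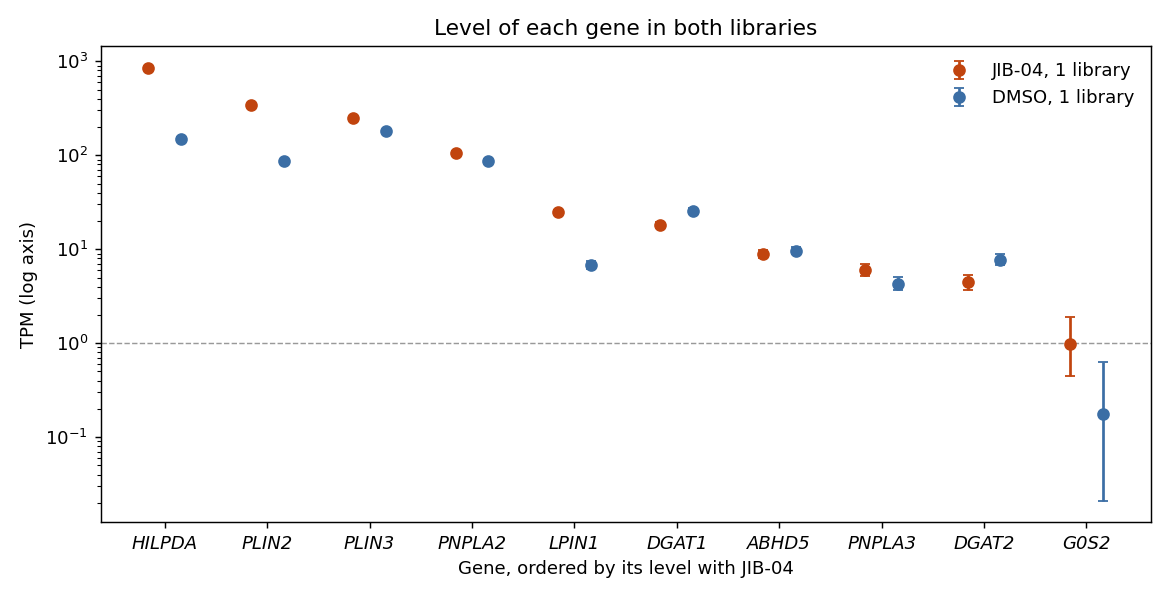
TPM of each of the 10 genes on a log axis in the JIB-04 library (left point of each pair) and the DMSO library (right point), with 95% Poisson intervals of the estimated fragments as bars, which are shorter than the points for the deeper genes. HILPDA, PLIN2 and LPIN1 show the widest gaps in favour of JIB-04 among the genes above 1 TPM (dashed line), and DGAT1 and DGAT2 lie lower with JIB-04.

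HILPDA, an ATGL inhibitor that binds ATGL on the droplet and slows lipolysis, lies on chromosome 7 of hg19 from 128095884 to 128098472, on the plus strand. It was at 842 TPM with JIB-04 (95% Poisson interval 826 to 857) and at 149 TPM with DMSO (interval 143 to 155). The counting intervals were far apart, and HILPDA was the most abundant of the 10 genes with JIB-04 and the second with DMSO. It was 5.62-fold higher, a log2 ratio of 2.49 (95% interval 2.43 to 2.55, for 11658 fragments with JIB-04 and 2497 with DMSO), and 74th of the 14450 genes by ratio. Among all genes of the files it stood 160th by level with JIB-04 and 1252nd with DMSO.

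Both annotated HILPDA transcripts, which differ in the length of their first exon, were higher with JIB-04. The longer one, NM_013332, was at 818 TPM with JIB-04 and 146 TPM with DMSO, and the shorter one, NM_001098786, at 23.9 TPM with JIB-04 and 3.12 TPM with DMSO. The longer transcript made up 97.2% of the gene's level with JIB-04 and 97.9% with DMSO. These levels and shares are as apportioned by StringTie, the tool that estimated them. Exon 2, which both transcripts share, held 11092 of 11658 fragments with JIB-04 and 2364 of 2497 with DMSO. Exon 1 and exon 2 of the longer transcript had log2 ratios of coverage of 2.36 and 2.51, with overlapping intervals. Coverage here is the depth per base scaled to each library's TPM, without a pseudocount. For every gene it is summed over all transcripts that have the same exon.

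G0S2, the other small inhibitor of ATGL (chromosome 1, 209848670 to 209849735, plus strand), was barely detected. It was at 0.99 TPM with JIB-04 (interval 0.45 to 1.88) and at 0.17 TPM with DMSO (interval 0.021 to 0.63). These values rest on an estimated 9 fragments with JIB-04 and 2 with DMSO. The log2 ratio was 0.76 (95% interval 0.08 to 1.09), and with a pseudocount of 0.1 TPM it was 1.99, so that its size is set mainly by the pseudocount.

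PLIN2 and PLIN3 encode perilipins, proteins that coat the droplet. PLIN2, whose protein is stable only when bound to droplets, lies on chromosome 9 from 19115759 to 19127604 on the minus strand. It was at 343 TPM with JIB-04 (interval 335 to 351) and at 86.1 TPM with DMSO (interval 82.4 to 89.9). It was 3.95-fold higher, a log2 ratio of 1.98 (95% interval 1.91 to 2.05, for 6779 fragments with JIB-04 and 2065 with DMSO), and 177th by ratio. All 8 exons of its main transcript, NM_001122, had log2 ratios of coverage between 1.75 and 2.11, lowest in exon 1 and highest in exon 2. The intervals of all 8 overlapped, and the difference was spread over the whole transcript. The noncoding transcript NR_038064 was listed at 0 with JIB-04 and at 2.80 TPM with DMSO, 3.25% of the gene.

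PLIN3, a perilipin that moves between the cytosol and nascent droplets, lies on chromosome 19 from 4838346 to 4867780 on the minus strand. It was at 250.4 TPM with JIB-04 (interval 244 to 257) and at 182 TPM with DMSO (interval 177 to 187), a log2 ratio of 0.46 (95% interval 0.41 to 0.51). This difference was larger than counting error but within 2-fold. Its 8 exons had log2 ratios of coverage between 0.24 and 0.53, and the 3 transcripts kept close shares, the main one 82.8% with JIB-04 and 83.3% with DMSO. PLIN3 was the most abundant of the 10 genes with DMSO, where PLIN2 was at 0.47 times its level, and in the JIB-04 library PLIN2 was at 1.37 times the level of PLIN3. The order of both coats was thus different in the libraries, by intervals that do not overlap within either one.

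The promoters of PLIN2 and PLIN3 are shown because the coats differed in their ratio and hypoxia-inducible factors bind a short core sequence. The stretches are the 250 bases before the gene start, 5′ to 3′ on the gene's strand, from RefSeq on GRCh38.p14, a build other than that of the files. PLIN2 is at chr9:19127493-19127742 and PLIN3 at chr19:4867668-4867917, both on the minus strand. Capitals mark the cores ACGTG and GCGTG on either strand (CACGT and CACGC on the minus one), where overlapping matches run together, and the last match of PLIN2 continues past the gene start.
PLIN2: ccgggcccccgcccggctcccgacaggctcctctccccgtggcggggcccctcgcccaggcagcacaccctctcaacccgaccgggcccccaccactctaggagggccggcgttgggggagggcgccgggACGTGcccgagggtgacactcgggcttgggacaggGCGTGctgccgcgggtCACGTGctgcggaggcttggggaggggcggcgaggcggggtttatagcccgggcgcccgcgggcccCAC
PLIN3: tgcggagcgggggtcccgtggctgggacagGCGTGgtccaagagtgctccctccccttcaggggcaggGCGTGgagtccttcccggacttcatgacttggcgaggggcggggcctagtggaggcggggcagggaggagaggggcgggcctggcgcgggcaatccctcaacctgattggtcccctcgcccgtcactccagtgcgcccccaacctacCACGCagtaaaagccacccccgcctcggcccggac
The search covered 300 bases, 50 of them after the gene start. PLIN2 held ACGTG 3 times, of which 2 matches overlap as the palindrome CACGTG that begins 69 bases before the start, and the third begins 120 bases before it. It also held GCGTG 2 times. PLIN3 held no ACGTG and GCGTG 3 times. Of 35116 promoters in the table, 21.4% held ACGTG, 36.5% held GCGTG and 48.4% held either, so a match is frequent. The table gives 10 promoters for 6 members, with 3 each for LPIN1 and ABHD5, and 7 of the 10 held either core. The first and second promoters of ABHD5 overlap and hold the same GCGTG match, which counts in both. G0S2 held GCGTG 4 times and PNPLA2 held neither core. HILPDA, PNPLA3, DGAT1 and DGAT2 had no entry. A link between these cores and the ratios of the genes was not tested.

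**Figure D2:**
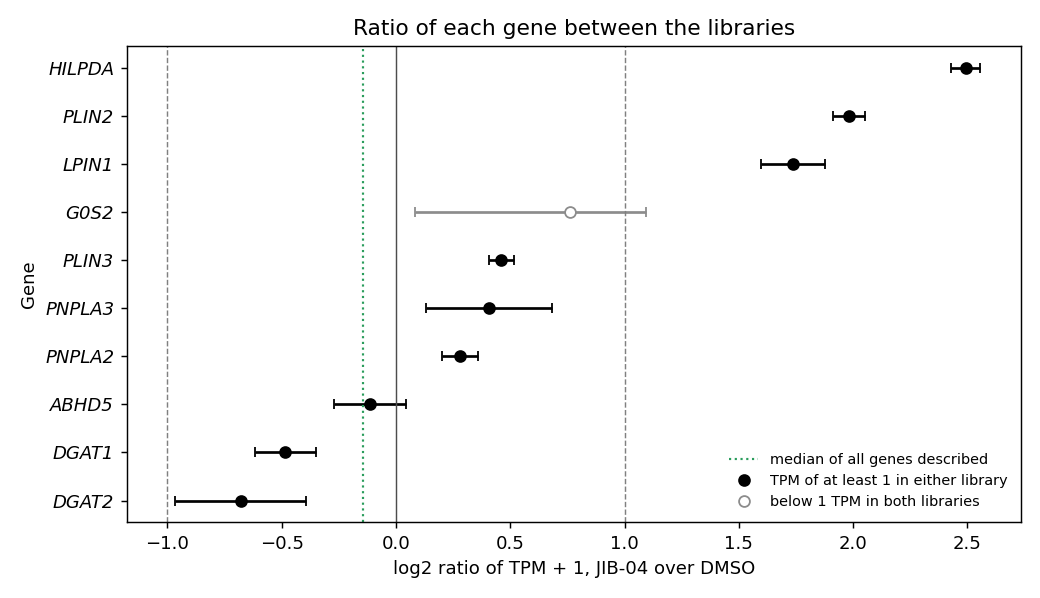
Log2 ratio of TPM + 1, JIB-04 over DMSO, for each of the 10 genes with its 95% conditional binomial interval; dashed lines mark 2-fold and the dotted line the median of all genes described. HILPDA, PLIN2 and LPIN1 lie beyond 2-fold at 2.49, 1.98 and 1.74, and the open point is G0S2, which was under 1 TPM in both libraries.

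LPIN1 encodes lipin 1, a phosphatidate phosphatase that makes the diacylglycerol used by the DGAT enzymes and that also acts in the nucleus as a transcriptional coregulator. The gene lies on chromosome 2 from 11817670 to 11967533 on the plus strand. It was at 25.0 TPM with JIB-04 (interval 23.7 to 26.4) and at 6.80 TPM with DMSO (interval 6.18 to 7.47). It was 3.33-fold higher, a log2 ratio of 1.74 (95% interval 1.60 to 1.88, for 1343 fragments with JIB-04 and 439 with DMSO), and 256th by ratio. Among the 10 genes it was the fifth by level with JIB-04 and the eighth with DMSO. NM_145693 was the most abundant LPIN1 transcript by the mean of both libraries. Of its 20 exons, 19 had a ratio of coverage of at least 2, with coverage summed over the LPIN1 transcripts that share each exon. Exon 1 had a log2 ratio of 0.41, from about 1 fragment in each library.

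The 14 annotated LPIN1 transcripts begin at 4 positions. The 4 transcripts that begin at 11817670 or 11864441 were listed at 0 in both libraries. The 9 that begin at 11886711 held 24.8 TPM with JIB-04 and all 6.80 TPM with DMSO, and the single one that begins at 11888659 was at 0.25 TPM with JIB-04 and listed at 0 with DMSO. These levels are as StringTie apportioned them among transcripts that share most exons. The first exon at 11886711 itself held about 1 fragment in each library, and the exons specific to the transcript from 11888659 held about 1 and 8 fragments with JIB-04. The RefSeq table gives LPIN1 3 promoters whose starts lie 46771 and 22317 bases apart, against 46771 and 22270 bases between the first 3 starts in the files. The third is shown, as the one that corresponds in spacing to the start given most of the level, at chr2:11746382-11746631 of GRCh38.p14 on the plus strand.
LPIN1: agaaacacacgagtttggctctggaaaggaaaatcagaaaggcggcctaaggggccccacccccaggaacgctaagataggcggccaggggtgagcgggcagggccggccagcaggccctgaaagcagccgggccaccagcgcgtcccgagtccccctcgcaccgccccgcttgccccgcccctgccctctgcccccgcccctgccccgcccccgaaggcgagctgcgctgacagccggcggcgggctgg
None of these 250 bases is in capitals, since the only core found, GCGTG on the minus strand, begins 22 bases after the start.

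The LPIN1 transcripts differed in their ratios as apportioned by StringTie, although they share most of their exons. NM_001349206 was at 11.0 TPM with JIB-04 and 1.67 TPM with DMSO. NM_145693 was at 8.78 TPM with JIB-04 and 4.37 TPM with DMSO, so that with DMSO it was the most abundant transcript and with JIB-04 the second. NM_001349203 was at 2.94 TPM with JIB-04 and 0.76 TPM with DMSO, and NR_146080, a noncoding transcript, at 2.03 TPM with JIB-04 and listed at 0 with DMSO. For NM_145693 alone the log2 ratio was 0.86, below 2-fold.

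NM_001349206, NM_001349203 and NM_001349205 have a coding exon that NM_145693 and NR_146080 lack. NR_146080 further differs by an exon of 267 bases in place of 115 (from 11959610), and NM_001349205 by its first exons (from 11888659 and 11903149). The coding exon has 108 bases in NM_001349206 and NM_001349205 (chromosome 2, 11916212 to 11916319 of hg19) and 105 bases in NM_001349203 (from 11916215). Its sequence, from GENCODE on GRCh38, where an exon of this length lies between neighbours of the same lengths as in the files (126 and 127 bases), is at chr2:11776086-11776193 on the plus strand. Capitals mark the 3 bases that only the longer form has.
LPIN1 exon: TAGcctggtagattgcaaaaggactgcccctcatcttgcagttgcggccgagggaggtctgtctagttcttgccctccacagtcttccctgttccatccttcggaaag
Transcripts with the exon summed to 14.2 TPM with JIB-04 and 2.43 TPM with DMSO, and those without it to 10.8 TPM with JIB-04 and 4.37 TPM with DMSO. The exon was thus in 56.8% of the gene's level with JIB-04 and in 35.8% with DMSO, as apportioned by StringTie. Coverage of the exon itself was 44.9% of the mean of its neighbours with JIB-04 and 26.5% with DMSO. It rests on about 13 fragments with JIB-04 and 3 with DMSO, and its log2 ratio of 2.68 (95% interval 0.82 to 5.14) overlaps those of the exon before, 2.17 (interval 1.13 to 3.34), and the exon after, 1.70 (interval 0.74 to 2.75). A shift in the share of the exon was therefore not resolved at this depth.

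**Figure D3:**
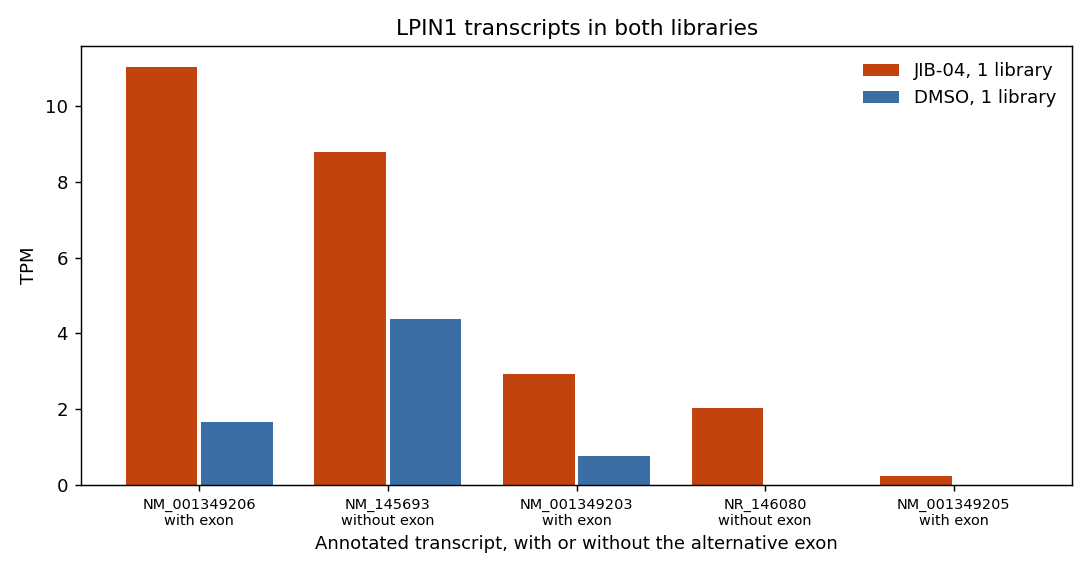
TPM of the 5 LPIN1 transcripts above 0 in the JIB-04 library (left bar of each pair) and the DMSO library (right bar), each marked as with or without the alternative exon. NM_001349206 is the tallest with JIB-04 at 11.0 TPM and NM_145693 the tallest with DMSO at 4.37 TPM.

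The lipase and its coactivator had ratios nearer to 1 than HILPDA. PNPLA2, which encodes ATGL, lies on chromosome 11 from 818901 to 825571 on the plus strand. It was at 106 TPM with JIB-04 (interval 102 to 110.2) and at 87.2 TPM with DMSO (interval 83.8 to 90.7), a log2 ratio of 0.28 (95% interval 0.20 to 0.36). Exons 3 to 10 had log2 ratios of coverage between 0.18 and 0.46, and exon 2 one of -0.04, while exon 1 rests on about 2 fragments with JIB-04 and 1 with DMSO. HILPDA was at 7.94 times the level of PNPLA2 with JIB-04 and at 1.71 times with DMSO. These are transcript levels, and neither protein was measured here.

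ABHD5, also called CGI-58, the coactivator of ATGL, lies on chromosome 3 from 43732375 to 43764217 on the plus strand. It was at 8.85 TPM with JIB-04 (interval 8.07 to 9.69) and at 9.66 TPM with DMSO (interval 8.91 to 10.5), and the log2 ratio of -0.11 has an interval that covers 0 (-0.27 to 0.05). The ratios of its exons differed in sign. Exons 1 and 2 had log2 ratios of coverage of 1.26 and 1.09, from 13 and 20 fragments with JIB-04 and 6 and 11 with DMSO. Both intervals cover 0 (-0.23 to 2.95 for exon 1 and -0.04 to 2.30 for exon 2). The last exon, of 4283 bases, stood at -0.47 (interval -0.72 to -0.21) and held 209 of 466 fragments with JIB-04 and 349 of 615 with DMSO. Without the last exon, a choice made after these values were seen, the log2 ratio of ABHD5 was 0.21, of the opposite sign.

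PNPLA3, a patatin-domain protein related to ATGL that is found on hepatocyte droplets, lies on chromosome 22 from 44319619 to 44343448 on the plus strand. It was at 6.04 TPM with JIB-04 (interval 5.16 to 7.03) and at 4.32 TPM with DMSO (interval 3.64 to 5.08), a log2 ratio of 0.41 (95% interval 0.13 to 0.68, for 167 fragments with JIB-04 and 144 with DMSO). Exon 1 had a log2 ratio of coverage of 1.89 and the last exon, exon 9, one of 0.06, and without the last exon the gene's ratio was 0.74. PNPLA3 and ABHD5 thus shared a last exon that was lower, relative to the rest, in the JIB-04 library. The log2 ratio of the last exon less that of the others was -0.82 for PNPLA3 and -0.69 for ABHD5, against 0.05 for PNPLA2 and 0.04 for DGAT1. Among 3446 genes with 1 transcript and at least 50 fragments on either side, the median of this difference was -0.06 and the central 95% ran from -0.91 to 0.55, so both lay inside that range, at percentiles 3.66 and 6.30.

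**Figure D4:**
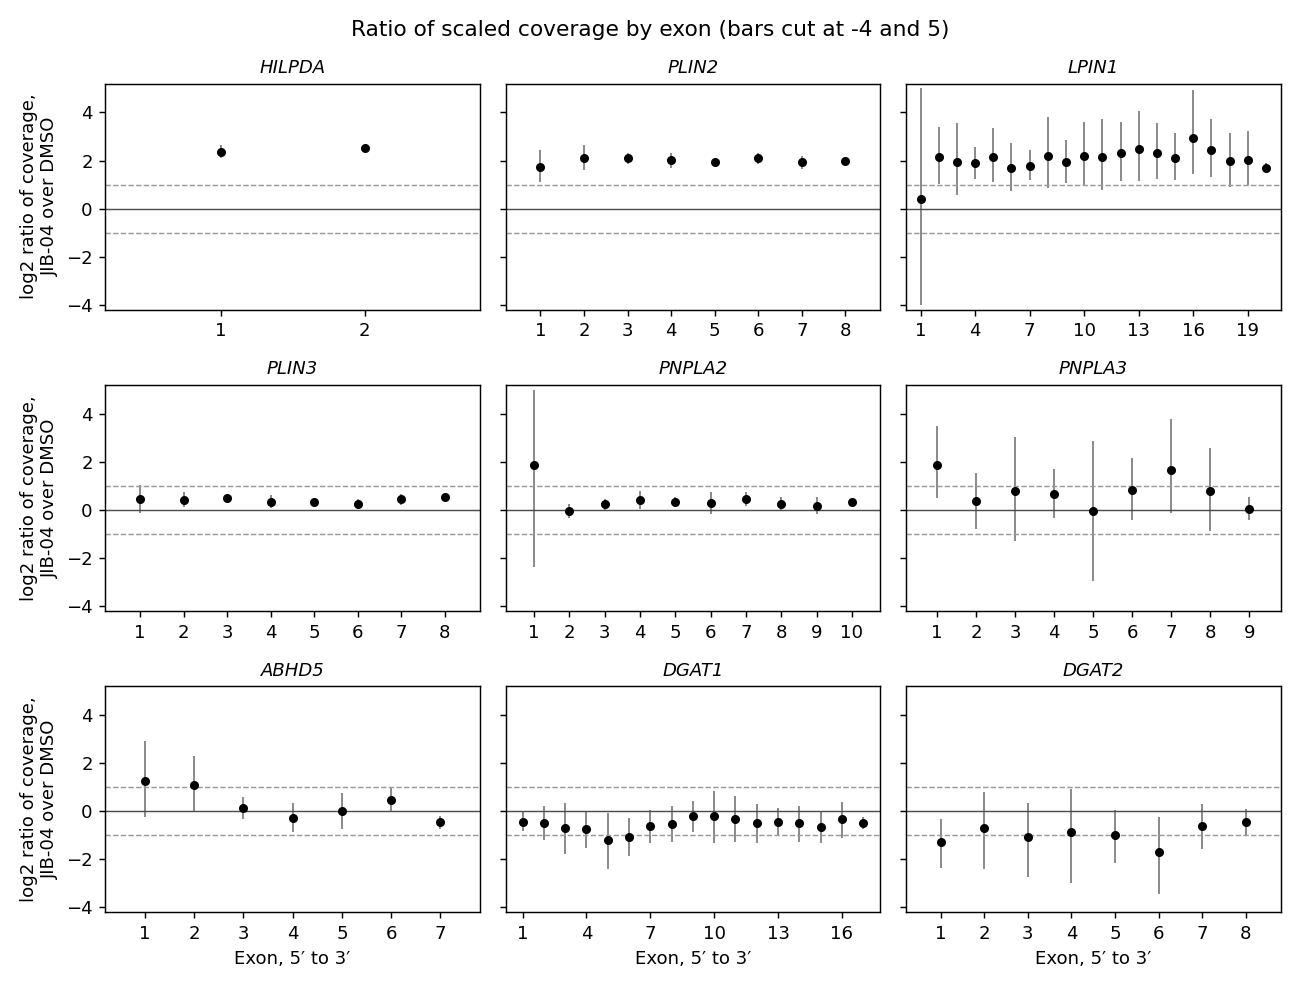
Log2 ratio of scaled coverage, JIB-04 over DMSO, for each exon from 5′ to 3′ in the most abundant transcript of the 9 described members. Coverage is summed over the gene's transcripts that share the exon. Bars are 95% conditional binomial intervals and dashed lines mark 2-fold. The exons of HILPDA and PLIN2 lie between 1.75 and 2.51, those of DGAT1 and DGAT2 all lie below 0, and the first exons of ABHD5 and PNPLA3 lie above their last ones.

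The enzymes of the final step were lower with JIB-04, although within 2-fold. DGAT1 and DGAT2 are unrelated proteins that catalyse the same acylation of diacylglycerol. DGAT1 (chromosome 8, 145538246 to 145550582, minus strand) was at 18.1 TPM with JIB-04 (interval 16.8 to 19.6) and at 25.8 TPM with DMSO (interval 24.3 to 27.3), a log2 ratio of -0.48 (95% interval -0.62 to -0.35). All 17 exons had log2 ratios of coverage below 0, between -1.18 and -0.21, so the lower level ran through the whole gene. DGAT1 overlaps HSF1 on the opposite strand, which was at 88.9 TPM with JIB-04 and 82.0 TPM with DMSO, and the microRNA gene MIR6848 on the same strand, at 2.15 TPM with JIB-04 and 0.92 TPM with DMSO. Their part in the level of DGAT1 was not tested.

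DGAT2 (chromosome 11, 75479778 to 75512581, plus strand) was at 4.46 TPM with JIB-04 (interval 3.65 to 5.38) and at 7.74 TPM with DMSO (interval 6.76 to 8.82). Its log2 ratio of -0.68 (95% interval -0.97 to -0.39, for 108 fragments with JIB-04 and 226 with DMSO) was the lowest of the 10 genes. All 8 exons were lower with JIB-04, with log2 ratios of coverage between -1.68 and -0.45. DGAT1 was at 4.07 times the level of DGAT2 with JIB-04 and at 3.33 times with DMSO, and the intervals of their ratios overlap. Relative to the median of all genes, -0.15, DGAT1 and DGAT2 were still lower and ABHD5 lay close to it.

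Among the listed genes of the wider machinery, only VLDLR, with a log2 ratio of 2.74, reached the ratios of HILPDA, PLIN2 and LPIN1. In 6 lists of 76 further genes, 57 were described. Past 2-fold with JIB-04 were 3 on the higher side (5.26%, against the background of 5.99%) and 9 on the lower side (15.8%, against 6.88%), and the median log2 ratio of the 57 was -0.20. Of the 10 described genes of triglyceride synthesis, 0 exceeded 2-fold on the higher side (against 5.99%) and 1 on the lower side (10%, against 6.88%), and the list's median was 0.27. Both other lipins were above 0 but within 2-fold, LPIN3 at 41.3 TPM with JIB-04 and 21.5 TPM with DMSO (log2 ratio 0.91) and LPIN2 at 68.4 TPM with JIB-04 and 38.2 TPM with DMSO (0.82). AGPAT2, which acylates lysophosphatidate, was at 196 TPM with JIB-04 and 106 TPM with DMSO (0.87), and its relative AGPAT1 at 110.0 TPM with JIB-04 and 194 TPM with DMSO (-0.81). MOGAT3, a monoacylglycerol acyltransferase, was at 4.58 TPM with JIB-04 and 11.1 TPM with DMSO (-1.12). LPIN2 is named as a relative of a member, after its values were seen.

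Among 15 described genes of droplet coats and biogenesis, 1 exceeded 2-fold on the higher side (6.67%, against 5.99% of all genes described) and 3 on the lower side (20%, against 6.88%), and the list's median was -0.29. LDAF1, which assembles with seipin where droplets form, was at 6.30 TPM with JIB-04 and 2.47 TPM with DMSO (log2 ratio 1.08), and CIDEB, a droplet protein of hepatocytes, at 8.50 TPM with JIB-04 and 5.00 TPM with DMSO (0.66). METTL7A, now named TMT1A, a droplet-associated methyltransferase, was at 11.2 TPM with JIB-04 and 32.0 TPM with DMSO (-1.44). HSD17B11, a dehydrogenase found on droplets, was at 123 TPM with JIB-04 and 268 TPM with DMSO (-1.12). CIDEC, which promotes droplet fusion, was at 4.44 TPM with JIB-04 and 10.6 TPM with DMSO (-1.09). The other perilipins were weak, with PLIN1 at 0.41 TPM with JIB-04 and 0.085 TPM with DMSO, PLIN4 at 1.22 TPM with JIB-04 and 3.01 TPM with DMSO and PLIN5 at 0.63 TPM with JIB-04 and 1.23 TPM with DMSO, so PLIN2 and PLIN3 made up nearly all perilipin transcript in both libraries. PLIN1 and PLIN5 were named after their values were seen.

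Among 7 described lipases, 0 exceeded 2-fold on the higher side (against 5.99% of all genes described) and 1 on the lower side (14.3%, against 6.88%), and the list's median was -0.21. LIPC, the secreted hepatic lipase, was at 23.3 TPM with JIB-04 and 60.2 TPM with DMSO (log2 ratio -1.34), and LIPE, hormone-sensitive lipase, at 3.16 TPM with JIB-04 and 5.93 TPM with DMSO (-0.74). MGLL, which completes triglyceride breakdown, was at 1.81 TPM with JIB-04 and 1.52 TPM with DMSO (0.16), and PNPLA4 at 13.6 TPM with JIB-04 and 13.1 TPM with DMSO (0.05). Both sterol ester enzymes described were within 2-fold, SOAT1, which esterifies cholesterol, at 36.3 TPM with JIB-04 and 50.4 TPM with DMSO (-0.46) and the hydrolase NCEH1 at 170.4 TPM with JIB-04 and 162 TPM with DMSO (0.07).

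Genes of fatty acid uptake and activation differed both ways, with 2 of 12 past 2-fold on the higher side (16.7%, against 5.99% of all genes described) and 4 on the lower side (33.3%, against 6.88%), and the list's median was 0.18. VLDLR, a receptor that takes up triglyceride-rich lipoproteins, was at 31.1 TPM with JIB-04 and 3.79 TPM with DMSO, a log2 ratio of 2.74 that was above that of HILPDA. ACSL5, an acyl-CoA synthetase, was at 30.8 TPM with JIB-04 and 13.2 TPM with DMSO (1.16). CD36, which takes up fatty acids, was at 0.53 TPM with JIB-04 and 3.29 TPM with DMSO (-1.49), and the liver fatty acid binding protein FABP1 was listed at 0 with JIB-04 and at 2.11 TPM, from 14 fragments, with DMSO. The bile acid and fatty acid ligases SLC27A2, at 7.43 TPM with JIB-04 and 19.4 TPM with DMSO (-1.27), and SLC27A5, at 3.28 TPM with JIB-04 and 9.41 TPM with DMSO (-1.28), were named after their values were seen.

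All 11 described regulators of these pathways were within 2-fold, with a median log2 ratio of 0.11. Of all genes described, only 5.99% were past 2-fold on the higher side and 6.88% on the lower side, so most genes were within it. RXRA, the partner of the PPAR receptors, was at 16.4 TPM with JIB-04 and 9.39 TPM with DMSO (log2 ratio 0.75). EPAS1, which encodes HIF-2α, was at 177 TPM with JIB-04 and 126 TPM with DMSO (0.49). PPARG was at 42.8 TPM with JIB-04 and 63.9 TPM with DMSO (-0.57), and the oxysterol receptor NR1H3 at 15.4 TPM with JIB-04 and 25.3 TPM with DMSO (-0.68). HIF1A, chosen after its value was seen, was at 116 TPM with JIB-04 and 132 TPM with DMSO (-0.18).

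**Figure D5:**
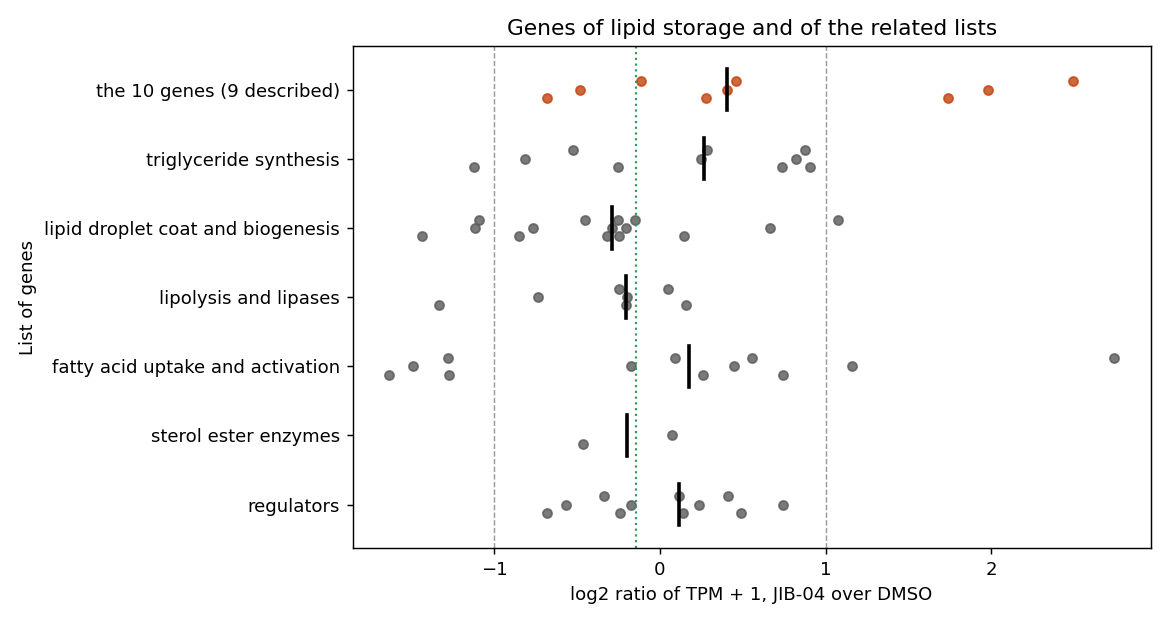
Log2 ratio of TPM + 1, JIB-04 over DMSO, for the 9 described members (top) and for the described genes of 6 related lists, 1 point a gene, with black bars at each list's median, dashed lines at 2-fold and the dotted line at the median of all genes, -0.15. VLDLR at 2.74, ACSL5 at 1.16 and LDAF1 at 1.08 are the listed genes beyond 2-fold on the higher side, and the lowest point is FABP1, whose place depends on the pseudocount because it was listed at 0 with JIB-04.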

How the data were processed

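RNA from 1 JIB-04 and 1 DMSO library of PLC/PRF/5 cells was sequenced as stranded mRNA libraries. Reads had been aligned to hg19, and the tools in the submitters' processing notes include HISAT2 2.0.5 and StringTie 1.3.3b. The authors deposited, for each annotated RefSeq transcript and exon, its coverage and, for transcripts, FPKM and TPM estimated by StringTie, with no read counts, so the depth was estimated.

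TPM was summed per gene by Entrez ID, and symbols came from a RefSeq table. Fragments were estimated by dividing aligned bases (coverage times length) by 202, the most frequent base total of weakly covered transcripts. Calls needed a ratio of TPM + 1 of at least 2 or at most 0.5, and no test was made with 1 library per group. Intervals (95%) were exact conditional binomial or Poisson and cover counting error only, so deeper genes are more precise.

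The members, lists and alternatives were chosen with earlier results of these data known. The text names all members and, per list, the 2 highest and 2 lowest genes whose mean was 1 TPM or more. Alternatives were a pseudocount of 0.1 or 5 TPM, a minimum of 5 TPM or none, FPKM in place of TPM, a median ratio of 0 for genes above 10 TPM in each library, division by GAPDH, the most abundant transcript, thresholds of 1.5-fold and 3-fold and, chosen after seeing the data, leaving out the last exon. The procedure was tested on simulated fragments with counting error only, for genes of at least 5 TPM. Its intervals were checked without a pseudocount and with equal depth in both simulated libraries. That test does not cover weaker genes, intervals of ratios with a pseudocount, libraries of unequal depth or differences between cultures. Python 3.11.15, pandas 2.3.3, SciPy 1.17.1 and matplotlib 3.10.9 were used.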

Additional observations from a re-analysis of the deposited data

How the results depend on the processing

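No paired analysis was possible because each condition has 1 library. HILPDA, PLIN2 and LPIN1 stayed above 0 and DGAT1 and DGAT2 below 0 under the 7 alternatives that give each gene a value. Division by GAPDH, whose own log2 ratio was 1.34, changed the counts most, to 1 member past 2-fold on the higher side and 4 on the lower side and a median log2 ratio of -0.93, and it alone turned PLIN3, PNPLA2, PNPLA3 and G0S2 below 0. The division lowers every gene by the same 1.34, which puts the median of all genes described past 2-fold on the lower side and below the median of the members. At a 1.5-fold threshold 1 member, DGAT2, was lower. With the most abundant transcript alone, 2 members, HILPDA and PLIN2, were at least 2-fold higher. Scaling to the well expressed genes, which moved all ratios up by 0.15, left the calls as they were and put ABHD5 at 0.04. The other counts were 3 higher and 0 lower. With 1 library per condition, no replicate could be left out, and differences between cultures could not be measured. G0S2, DGAT2, PNPLA3 and single exons are limited by depth.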
